A study of Homo sapiens with 3 samples.

Results

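The members described here are clusters of PAR-CLIP reads that the deposited annotation places in a repeat outside annotated genes, with all elements named L2, L2a, L2b, L2c or L2d left out. PAR-CLIP crosslinks a protein to RNA that carries 4-thiouridine, and a crosslinked base is later read as C where the reference has T. The protein was MATR3, a nuclear matrix protein that binds RNA and DNA, and the cells were HAP1, a near-haploid human line derived from the chronic myeloid leukaemia line KBM-7. Libraries came from 2 wild-type (WT) replicates, called replicate 1 and replicate 2 here, and from 1 MATR3 knockout (KO) line under a single catalogue number, named in the design as negative control. The labels list no treatment that separates the groups other than the genotype, record an anti-FLAG pull-down without a tag on MATR3, and do not say whether the replicates were separate cultures. In all 3 libraries the RNA was trimmed by RNase T1, an enzyme that cleaves behind G.

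The members numbered 1171 of 115227 clusters in all: 902 of 87230 in replicate 1, 237 of 27155 in replicate 2 and 32 of 842 in KO. Reads in clusters summed to 2668797, 1558995 and 224142. Clusters assigned to the targeted gene MATR3 itself numbered 53, 26 and 0, which does not measure the protein. Membership used the annotation and the repeat name only. Each member was put in a family by its name: long terminal repeat (LTR) elements with their internal parts, L1, other LINE, Alu, MIR, DNA transposons and simple repeats. MER names were split between LTR and DNA by a name list, and MamRep and UCON names were counted as DNA, so the LTR and DNA shares carry that uncertainty. Names that begin with L2 but belong to other entries, L2-3_Crp and L2-1_AMi, passed the rule and stand under other LINE.

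Repeats make up much of the human genome between genes. LTR elements are remains of retroviruses, with coding parts (names ending in -int) flanked by the repeats that hold promoter and polyadenylation signal. L1 elements encode their own reverse transcriptase, Alu and MIR are short elements that relied on the enzymes of LINEs, DNA transposons moved by a cut-and-paste transposase, and simple repeats are short tandem units. HERVH, an endogenous retrovirus whose LTR is LTR7, is known for transcripts in pluripotent human cells. MATR3 carries RNA recognition motifs and is known to bind pyrimidine-rich RNA and to bind within LINE sequence in introns.

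Sequences of 4 sites among those with the most reads in both WT libraries are given first. They were chosen by reads, not by distinct read sequences. Each is written 5′ to 3′ on the strand of the cluster in replicate 1, with coordinates in hg38, and capitals mark any of 3 pentamers. The first is TTCTT, made of pyrimidines alone. The second, likewise made only of pyrimidines, is TTTCT. The last, which appears here only in sequences shown for other families, is ATCTT. The first lies at chr10:100386513-100386547 (+), the second at chr20:40094303-40094335 (+), the third at chrX:118280991-118281029 (-) and the last at chr19:5552438-5552472 (+).
HERVH-int, chromosome 10: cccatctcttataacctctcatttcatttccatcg
HERVH-int, chromosome 20: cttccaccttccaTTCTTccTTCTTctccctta
HERV9NC-int, chromosome X: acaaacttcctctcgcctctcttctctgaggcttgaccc
HERVH-int, chromosome 19: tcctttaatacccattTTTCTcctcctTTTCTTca
The chromosome 10 cluster held 256 reads in replicate 1 and 387 in replicate 2, and its bounds were the same in both. The chromosome 20 cluster held 151 and 210 reads. The HERV9NC-int cluster held 89 and 60 reads, and the chromosome 19 cluster 93 and 52. Distinct read sequences numbered 30 and 16 on chromosome 10 and 12 and 8 on chromosome 20. They numbered 7 and 2 in HERV9NC-int and only 10 and 1 on chromosome 19. All 4 sites are internal retroviral sequence, 3 of them HERVH, and none was in the KO list.

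Members were a small part of each WT library. They made up 1.03% of clusters in replicate 1 (95% Wilson interval 0.969 to 1.1) and 0.873% in replicate 2 (0.769 to 0.991). The WT replicates thus averaged 0.953% ± 0.114 (SD, n = 2). KO members made up 3.80% (2.70 to 5.32), an interval that lies above both WT intervals. With each window of 100 kb counted once per strand, windows with a member were 5.45% of windows with a cluster in replicate 1. They were 2.42% in replicate 2 and 4.04% in KO. This share depends on how many clusters fall in a window, and the lists differ in size (87230, 27155 and 842 clusters). It therefore cannot decide whether the excess of KO holds. Without clusters that end in the 3′ word described below, the KO share was 2.03%. By reads the shares were 0.774%, 0.758% and 3.82%. Of clusters called repeat, members were 47.2% in replicate 1, 45.1% in replicate 2 and 91.4% (77.6 to 97.0) in KO, because KO had only 3 L2 clusters. The genotypes were not tested against each other, because a permutation of 2 against 1 libraries reaches no p below 0.33, and the intervals here cover counting error only.

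LTR elements were the largest family in every library. They gave 417 members (46.2%) in replicate 1, 113 (47.7%) in replicate 2 and 12 (37.5%, 22.9 to 54.7) in KO, with a WT mean of 47.0% ± 1.02 (SD, n = 2). Simple repeats followed in WT with 146 (16.2%) and 42 (17.7%), against 2 of 32 in KO (6.25%, 1.73 to 20.1), an interval that holds both WT shares. MIR gave 96 (10.6%), 27 (11.4%) and 4 (12.5%). L1 gave 73 (8.09%) and 17 (7.17%) in WT and 8 (25%, 13.3 to 42.1) in KO. Without clusters that end in the 3′ word described below, the KO share of L1 was 13.3%. DNA transposons gave 68 (7.54%), 17 (7.17%) and 4 (12.5%), and other LINE elements gave 29, 9 and 1. Alu had 71 members (7.87%, 6.29 to 9.81) in replicate 1 and 9 (3.80%, 2.01 to 7.06) in replicate 2, overlapping intervals of which neither held the other share. The WT shares of LTR, simple, MIR, L1 and DNA members each lay within the interval of the other replicate.

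**Figure D1:**
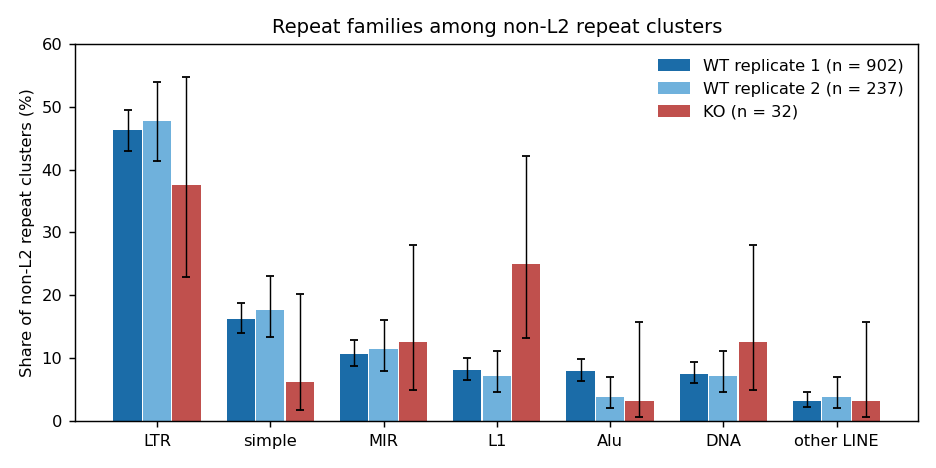
Share of the non-L2 repeat clusters (%, y axis) that belong to each repeat family (x axis), per library, with 95% Wilson intervals as error bars. LTR elements led with 46.2%, 47.7% and 37.5%, and L1 stood at 25% of the 32 KO clusters against 8.09% and 7.17% in WT, and at 13.3% in KO without clusters of the 3′ word.

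Within the LTR family a single name led. HERVH-int, the internal part of the HERVH provirus, had 82 clusters in replicate 1 (9.09%, 7.38 to 11.1), 23 in replicate 2 (9.70%, 6.55 to 14.1) and 0 of 32 in KO, where the interval reaches 10.7% and so covers both WT shares. These clusters took 17.9% of the members' reads in replicate 1 and 16.6% in replicate 2. Reads per HERVH-int cluster ran from 5 to 277 with a median of 25.5 in replicate 1, and from 5 to 387 with a median of 63 in replicate 2. Its LTR, listed as LTR7, had 1 cluster in replicate 1 and none in replicate 2. Clusters of HERVH-int were rich in C and poor in G: 36.4% C, 34.1% T and 7.36% G in replicate 1, and 37.1% C, 37.0% T and 7.27% G in replicate 2.

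HERVH-int clusters were spread over the genome. Joined within 10 kb on a strand they formed 63 loci on 20 chromosomes, 56 with a cluster in replicate 1, 18 in replicate 2 and 11 in both. A single cluster made up 42 of the 63 loci. Only 7 loci lay within a RefSeq gene on their strand, 5 of them within a long non-coding RNA gene. The largest locus, on the plus strand of chromosome 10 between 100384317 and 100387878, lies within OLMALINC, a long non-coding RNA gene. It held 11 clusters with 984 reads in replicate 1 and 2 clusters with 392 reads in replicate 2. Most reads there fell in 2 clusters of replicate 1, with 256 and 277, and in the 1 cluster of replicate 2 with 387.

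**Figure D2:**
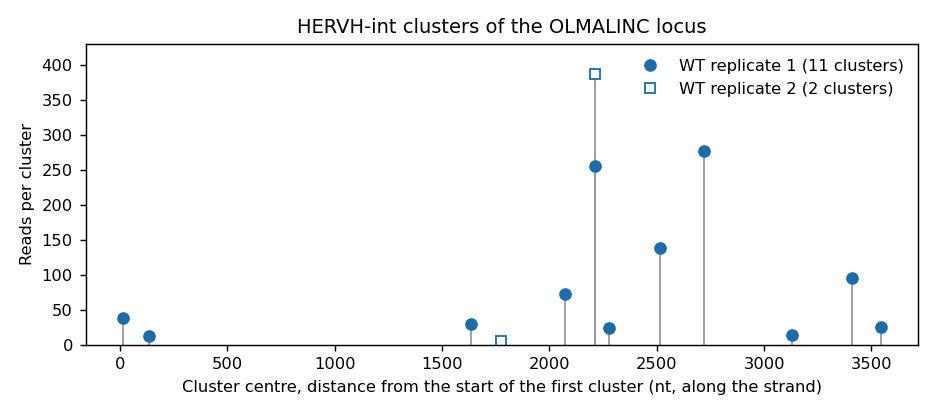
Reads per cluster (y axis) of the HERVH-int clusters within OLMALINC against the distance of the cluster centre from the start of the first cluster (x axis, nt), with filled circles for replicate 1 (11 clusters) and open squares for replicate 2 (2 clusters). The libraries coincide at 1 position, where the clusters hold 256 and 387 reads, and KO has no HERVH-int cluster.

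Copies of HERVH share sequence, and clusters fell on the same stretch in separate copies. Of the 105 HERVH-int clusters of the WT libraries, 61 (58.1%) shared a word of 12 nt with a cluster of another HERVH-int locus. In other LTR members 33.9% (144 of 425) did so within their family, in Alu 66.3% (53 of 80), in L1 4.44% (4 of 90) and in MIR 3.25% (4 of 123). These shares describe how alike the copies are as well as where clusters lie, so they are not compared by a test. Several words recurred, and those at most loci were found at 5 each. The first, in capitals, lay in 5 clusters of minus-strand copies, all from replicate 1.
chr5:180419123-180419160 (-): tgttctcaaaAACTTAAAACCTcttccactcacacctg
chr11:130568745-130568771 (-): AACTTAAAACCTctcaactcacacctg
chr5:122478006-122478041 (-): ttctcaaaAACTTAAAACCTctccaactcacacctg
chr5:120701987-120702023 (-): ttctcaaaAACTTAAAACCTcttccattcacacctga
chr10:6633989-6634020 (-): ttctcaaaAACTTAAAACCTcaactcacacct
They held 158, 130, 101, 66 and 51 reads. The reads of these clusters that carry a T-to-C change were 30.7% to 62.7% of the total, with a median of 50%, below the median of 88.4% over all HERVH-int clusters of that library. The 5 clusters also held more reads than the HERVH-int median of 25.5. Other HERVH-int clusters of that library with many reads included 69.7% (277 reads), 82.4% (256), 79.5% (151), 53.6% (138) and 91.0% (89). They also included 18.3% (115 reads), 55.9% (111) and 48.4% (93). Low shares were thus not limited to clusters with this word. Clusters with and without the word were not compared at equal read numbers.

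The second, with a single purine and again in capitals, was shared by clusters of 5 loci on 5 chromosomes, 4 clusters from replicate 1 and 2 from replicate 2, and 4 of the loci are shown.
chr7:113238002-113238039 (-): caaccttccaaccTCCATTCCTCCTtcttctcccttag
chr19:5549766-5549799 (+): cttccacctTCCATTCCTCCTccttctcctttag
chr2:36600301-36600333 (+): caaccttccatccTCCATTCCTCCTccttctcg
chr3:128840997-128841034 (-): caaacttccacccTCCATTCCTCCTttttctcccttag
The chromosome 3 site was called in both libraries, with 6 reads in replicate 1 and 22 in replicate 2. The clusters on chromosomes 7 and 19 held 115 and 111 reads in replicate 1, and the one on chromosome 2 held 103 reads in replicate 2. No member had the same full sequence as a member at another place.

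Other LTR members were split over many names. Internal parts other than HERVH gave 49 clusters under 28 names in replicate 1, 8 under 7 names in replicate 2 and 7 under 5 names in KO. The MaLR elements, old mammalian LTR retrotransposons, gave 30 THE1, 22 MST and 43 MLT1 clusters in replicate 1, and 6, 8 and 10 in replicate 2. MSTA alone gave 8 and 4 clusters and none in KO. LTR33 itself gave 13 clusters with 7 to 146 reads in replicate 1 and 7 with 16 to 187 reads in replicate 2, and none in KO. For MSTA and for LTR33 the KO interval reaches 10.7% of members and so covers their WT shares. A locus of LTR33 and LTR50 on the plus strand of chromosome 14 held 6 clusters with 248 reads in replicate 1 and 1 with 78 reads in replicate 2. Another locus, within SOX2-OT, the long non-coding RNA gene that spans SOX2, held 4 clusters with 382 reads in replicate 2, named LTR33 and (CATTCTT)n, and none in replicate 1. This holds for members only. Clusters annotated to SOX2-OT itself, which are not members, numbered 30 in replicate 1, 16 in replicate 2 and 1 in KO. HERVL-int and HERVK11-int, each with 2 KO clusters, had none in either WT library. Both HERVL-int clusters carry the 3′ word described below. The HERVK11-int clusters, which lack it, held 422 and 9 reads.

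L1 members were mostly old elements. The L1M subfamilies gave 63 of 73 clusters in replicate 1, 13 of 17 in replicate 2 and 5 of 8 in KO, while the primate L1PA subfamilies gave 4, 3 and 2. Their median was 16 reads in replicate 1, 28 in replicate 2 and 348 in KO. The WT libraries differed in base composition here: L1 clusters held 30.2% T and 37.6% A in replicate 1 but 42.3% T and 23.5% A in replicate 2. The L1 clusters with the most reads in replicate 2 were an L1PA5 cluster at chr12:128492213-128492254 (-) and an L1ME3Cz cluster at chr2:207486694-207486728 (-), given here because they contrast in conversion.
L1PA5: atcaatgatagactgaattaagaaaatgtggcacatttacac
L1ME3Cz: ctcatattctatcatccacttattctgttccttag
The L1PA5 cluster had 142 reads, of which 4.93% carried a T-to-C change, and the L1ME3Cz cluster had 134 reads, of which 98.5% did. In replicate 1 the leading L1 clusters, L1MB7 and L1MB2, had 47 reads each, 93.6% and 36.2% of them with a T-to-C change.

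Alu and MIR, the short interspersed elements, differed in composition. Alu clusters were low in T, with 23.5% in replicate 1 and 25.6% in replicate 2, and 47.1% of their bases were pyrimidine in both. MIR clusters held 36.4% and 40.5% T and 63.3% and 64.4% pyrimidine. AluS gave 36 clusters and the older AluJ 26 in replicate 1, against 4 and 3 in replicate 2. Among MIR names, MIRb gave 34, 11 and 2 clusters in replicate 1, replicate 2 and KO, MIR gave 27, 8 and 1, MIR3 gave 17, 3 and 1, and MIRc gave 16, 4 and 0. Clusters with many reads are shown as examples, with the same pentamers in capitals: MIR at chr4:139055763-139055797 (-) with 84 reads in replicate 1, MIRc at chr5:134134698-134134733 (-) with 148 reads in replicate 2, AluSx1 at chr13:50054566-50054599 (-) with 49 reads in replicate 1 and AluSz at chr7:100340906-100340944 (+) with 143 reads in replicate 2.
MIR: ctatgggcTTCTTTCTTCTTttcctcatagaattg
MIRc: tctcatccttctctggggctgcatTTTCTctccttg
AluSx1: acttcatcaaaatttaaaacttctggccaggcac
AluSz: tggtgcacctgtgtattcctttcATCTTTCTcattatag
The AluSz cluster, unlike the Alu members as a whole, is mostly pyrimidine. The MIRc site was also called in replicate 1, with 23 reads.

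DNA transposon members were led by MER1B in replicate 1 and MER5A in replicate 2, both non-autonomous elements of the hAT group. The MER1B cluster at chr16:74797329-74797367 (-) held 131 reads in replicate 1 and its partner held 34 in replicate 2. Tigger elements, relatives of the pogo transposon, gave 15 clusters in replicate 1 and 3 in replicate 2, and Charlie elements gave 10 and 3. The MER1B sequence and that of a Tigger12c cluster, chr14:51305311-51305349 (+) with 83 reads in replicate 1, hold these pentamers.
MER1B: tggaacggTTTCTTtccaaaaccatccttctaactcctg
Tigger12c: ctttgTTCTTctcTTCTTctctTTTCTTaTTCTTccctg
Among other LINE members, L2-3_Crp gave 11 clusters in replicate 1 and 5 in replicate 2. It gave none in KO, where the interval reaches 10.7% and so covers both WT shares. Without L2-3_Crp and L2-1_AMi the mean WT share of members was 0.936% in place of 0.953%.

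Simple repeats stood apart in strand and composition. All 146 in replicate 1, all 42 in replicate 2 and both in KO were on the plus strand, whereas the other members were on the plus strand in 52.8%, 53.3% and 20% of cases. A simple repeat unit reads differently on each strand, and the files do not say whether the annotation was matched by strand. For the plus strand alone, a rule of the annotation and a property of the sites therefore cannot be told apart. Units made of C and T alone gave 102 clusters in replicate 1, 28 in replicate 2 and 0 in KO. Pyrimidines were 83.3% of simple repeat bases in replicate 1 and 84% in replicate 2. The name (TC)n gave 12 and 3 clusters. Leading examples were (TCTTC)n at chr17:20785914-20785947 (+) with 180 reads in replicate 1, and (TTC)n at chr2:15474547-15474580 (+) with 116 reads and (CTCT)n at chr19:14146311-14146343 (+) with 121 reads in replicate 2.
Simple repeat on chromosome 17, replicate 1: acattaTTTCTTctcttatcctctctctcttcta
Simple repeat on chromosome 2, replicate 2: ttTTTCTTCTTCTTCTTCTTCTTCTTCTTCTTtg
Simple repeat on chromosome 19, replicate 2: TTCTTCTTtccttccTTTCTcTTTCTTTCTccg

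Members held slightly fewer reads than clusters in general in WT. The median was 17 reads against 20 over all clusters in replicate 1, 34 against 39 in replicate 2, and 249 against 243 in KO. The range was 5 to 277, 5 to 387 and 6 to 626. Distinct read sequences were fewer, with a median of 2 per member in both WT libraries and 7 in KO. Over all clusters these medians were 3, 3 and 7. Whether reads of the same sequence are copies of each other was not tested. Among the families with 50 or more members in replicate 1, medians ran from 11 reads for Alu to 18 for LTR and MIR. The KO median fell to 151 reads without the clusters that end in the 3′ word.

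**Figure D3:**
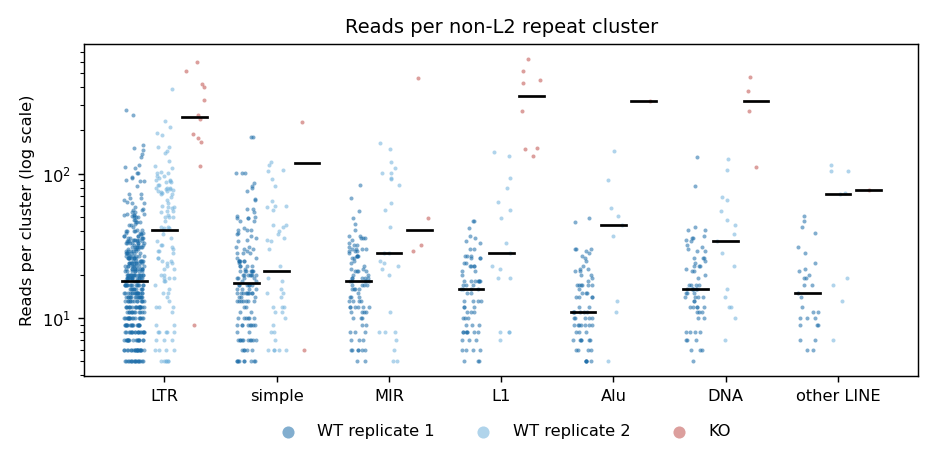
Reads per cluster (y axis, log scale) of every member by repeat family (x axis) and library, with a black bar at each median. Medians over all members were 17 reads in replicate 1, 34 in replicate 2 and 249 in KO.

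Few members recurred between the WT libraries. Of the members of replicate 1, 20 of 902 (2.22%, 1.44 to 3.4) shared 1 nt or more with a same-strand cluster of replicate 2, against 6% of all its clusters. Of the members of replicate 2, 18 of 237 (7.59%, 4.86 to 11.7) overlapped a cluster of replicate 1, against 19.5% of all its clusters, 18.7% of L2 clusters and 11% of unannotated clusters. The members' share was thus below the background in both directions. The gap was also seen at comparable read numbers: for 20 to 99 reads, 8.33% (4.59 to 14.7) of members of replicate 2 recurred against 20.6% of all clusters. Each of the 18 partners was itself a member with the same repeat name.

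Recurring sites were mostly LTR elements. They gave 14 of the 18 pairs, HERVH-int 6 of those, while simple repeats gave 2, MIR 1, DNA transposons 1, and L1 and Alu none. Among HERVH-int clusters of replicate 2, 6 of 23 (26.1%, 12.5 to 46.5) recurred, and among members without HERVH-int 12 of 214 (5.61%, 3.24 to 9.54), whose interval lies below that of HERVH-int. HERVH-int clusters held a median of 63 reads there and the other members 30.5, and they were not compared at equal read numbers. The pairs at chr11:118718580 and chr11:118720051 lie in the same locus, while the intervals treat clusters as independent. The HERVH-int share was near the background, as its interval holds the 19.5% of all clusters. LTR members together recurred in 14 of 113 cases (12.4%, 7.53 to 19.7). For L1 the count of 0 of 17 and for Alu of 0 of 9 leave intervals up to 18.4% and 29.9%. One member of replicate 1, a (GGCGGT)n repeat, overlapped a KO cluster, and no member of replicate 2 did. Seen from KO, this was 1 of 32 members (3.13%), against 55 of all 842 clusters (6.53%). Over both WT libraries the members formed 975 loci when joined within 10 kb, of which 865 held 1 cluster, 49 had clusters in both libraries and 5 held at least 5 clusters.

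T-to-C conversion in WT members was a little above that of all clusters. Of T events in members, 9.13% were converted in replicate 1 and 8.19% in replicate 2, against 7.98% and 7.55% in all clusters. L2 clusters gave 8.75% and 7.95% and unannotated clusters 8.43% and 7.68%, so a share above that of all clusters was not particular to members. In KO the order of members and all clusters was the other way, 6.63% against 9.04%, and KO members without the 3′ word gave 10.5%. Members with a T-to-C change in under 50% of their reads were 40 of 902 (4.43%, 3.27 to 5.98), 13 of 237 (5.49%, 3.23 to 9.16) and 10 of 32 (31.3%, 18.0 to 48.6), against 4.16%, 3.95% and 11.6% of all clusters. Unannotated KO clusters were near the KO members on both measures. Of their T events 6.31% were converted, and 40 of 126 (31.7%, 24.3 to 40.3) were under 50%. The low KO values were thus not particular to members. By family the converted share was lowest in simple repeats, 6.40% and 6.36% in the WT libraries, and in Alu, the family with the least T, it was 19.1% in replicate 1 and 9.94% in replicate 2. LTR members gave 8.84% and 8.93%. All listed clusters had 2 or more converted positions, so the converted share depends in part on which clusters were listed.

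Bases of WT members resembled those of all WT clusters, and those of KO members resembled those of unannotated KO clusters. T made up 37.5% of bases in members of replicate 1, 40.8% in replicate 2 and 29.9% in KO. Pyrimidines made up 67.2%, 69.5% and 50.8%, against 68%, 68.7% and 55.9% over all clusters. G made up 9.72%, 10.4% and 22.5%, against 10.1%, 9.99% and 17.9% over all clusters. Unannotated KO clusters held 21.2% G and 53.9% pyrimidine. The WT mean of pyrimidine was 68.3% ± 1.63 (SD, n = 2), and 65.2% without simple repeats.

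**Figure D4:**
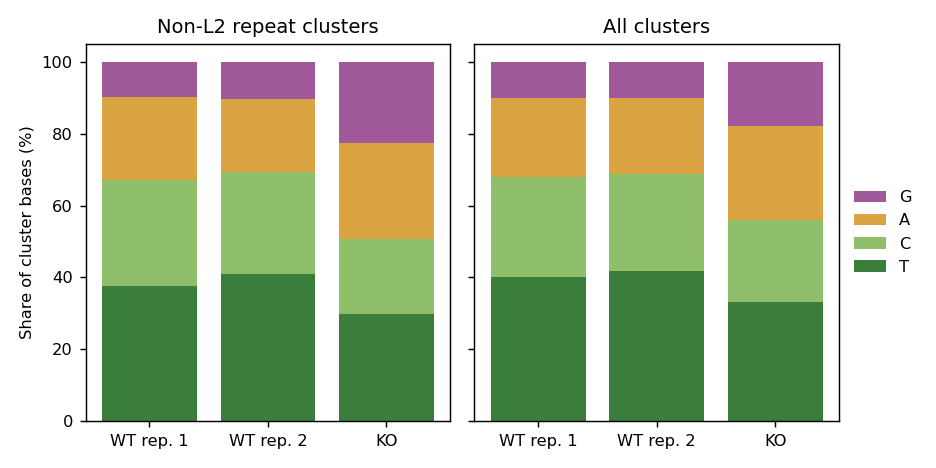
Share of cluster bases (%, y axis) that are T, C, A or G in the non-L2 repeat clusters (left) and in all clusters (right) of each library. G takes 9.72% and 10.4% of member bases in the WT libraries and 22.5% in KO.

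Pentamers were counted in the central 25 nt of clusters at least that long, on the strand of the cluster. TTCTT was in 22.2% of members of replicate 1, 25.3% of replicate 2 and 6.90% (1.91 to 22.0) of KO, close to the shares over all clusters of 22.8%, 25.7% and 8.90%. TTTCT, which overlaps it by 4 bases, was in 21.6%, 27.6% and 3.45%, against 24.1%, 26.4% and 10.7% of all clusters. ATCTT was in 8.22%, 10.1% and 10.3%, against 10.5%, 11.9% and 4.39%. Simple repeats carried TTCTT most often, in 41.1% and 42.1% of WT clusters, and without them TTCTT was in 18.6% and 21.8% of members. MIR gave an unstable value, 11 of 96 (11.5%) in replicate 1 and 12 of 22 (54.5%) in replicate 2. Alu had TTCTT in 0 of 71 and 1 of 8 clusters. GTGGC, in contrast, was in 7 of 71 and 2 of 8 Alu clusters, and in 2%, 2.76% and 10.3% (3 of 29) of members in replicate 1, replicate 2 and KO, against 1.21%, 1.13% and 2.19% of all clusters. A match describes letters only.

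The label intergenic held only in part against RefSeq genes of GRCh38.p14. Of members, 23.4% in replicate 1, 23.2% in replicate 2 and 21.9% in KO lay within a RefSeq gene known to be on their strand. Within 10 kb past the end of such a gene lay 18.2% (15.8 to 20.8), 12.2% (8.66 to 17.0) and 6.25% (1.73 to 20.1), against 25.8% and 24.2% of L2 clusters and 28.8% and 23.9% of unannotated clusters in the WT libraries. The WT intervals for members lie below those of the L2 clusters in both libraries. Strand was known for 27304 of 59788 genes, so the share within genes is a lower bound, and clusters counted past a gene end may lie within a gene whose strand was not known.

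Clusters of KO members differed at their 3′ ends. Of 32 KO members, 17 (53.1%, 36.4 to 69.1) ended in TGG or TGGA or held TGGAA in their last 12 nt, against 7 of 902 (0.776%) and 4 of 237 (1.69%) in the WT libraries. This word was chosen after the KO sequences had been seen. It was in 12.1% of all KO clusters, 38.1% of unannotated and 4.81% of intronic ones. Of the 17, 6 were L1 (of 8), 6 LTR (of 12), 3 DNA transposons (of 4), 1 MIR and 1 Alu, and 14 lay on the minus strand. Lengths were nearly fixed: 15 of the 17 were 43 or 46 nt long, against 1 of the other 15. Over all KO clusters, 91 of 102 with the word had one of these lengths and 12 of 740 without it. Of the 10 KO members with the most reads, 8 had the word, and 6 of these are shown with the stretch from the word to the end in capitals, since the KO values below turn on them. They are L1ME2 at chr12:43206348-43206393 (+), HERVL-int at chr2:51948042-51948087 (-), MLT1B at chrX:101508349-101508391 (-), MER5A at chr4:58018697-58018739 (-), MIRb at chr1:151164863-151164905 (+) and HERV9-int at chrX:71495429-71495474 (-).
L1ME2: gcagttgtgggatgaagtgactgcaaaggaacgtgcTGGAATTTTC
HERVL-int: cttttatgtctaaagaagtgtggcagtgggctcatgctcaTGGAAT
MLT1B: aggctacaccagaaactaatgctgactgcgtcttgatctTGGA
MER5A: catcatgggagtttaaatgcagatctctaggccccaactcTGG
MIRb: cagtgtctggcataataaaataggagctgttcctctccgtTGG
HERV9-int: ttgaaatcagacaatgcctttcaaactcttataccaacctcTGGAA
Their reads numbered 626, 593, 515, 469, 466 and 403. A T-to-C change was present in 95.8% of reads in L1ME2 and 97.8% in HERV9-int, but in 24.6% of reads in HERVL-int, 16.1% in MLT1B, 13.9% in MER5A and 17.0% in MIRb. L1M4a1 and L1MD2, the others of the 8, had 93.3% and 94.2%, so that 4 of the 8 were low and 4 high. Over the 17 members with the word the median was 93.3%, with 8 of them under 50%, and over the 15 without it 97.8%. Over all KO clusters the medians were 22.3% and 97.2%. Whether the reads of these clusters hold sequence added in library preparation was not tested, and the lengths, bases and reads of KO members carry that limit.

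**Figure D5:**
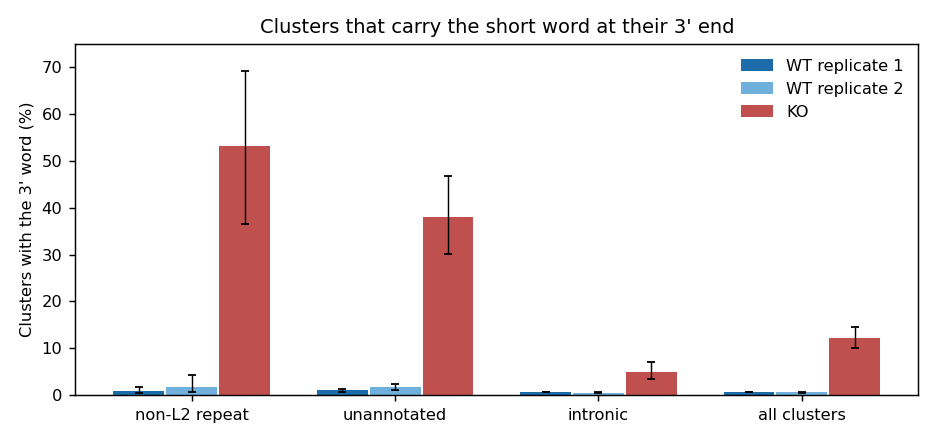
Share of clusters (%, y axis) that end in the 3′ word, by annotation class (x axis) and library, with 95% Wilson intervals. KO stands at 53.1% of non-L2 repeat clusters, 38.1% of unannotated, 4.81% of intronic and 12.1% of all clusters, and the WT libraries stand below 2% in each class shown.

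KO members without the word were few and of mixed kind. They numbered 15, with a median of 151 reads. The best covered were L1MA9 with 425 reads and HERVK11-int with 422, with T-to-C changes in 96.2% and 92.2% of reads. Of the 29 repeat names in KO, 15 also occurred in a WT library.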

How the data were processed

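Cluster tables, one per library, were used as the authors deposited them. Per the file headers each cluster has whole, unnormalised counts of reads, converted positions and T events, and deposited fraction columns give the share of its reads with a T-to-C change. The weakest listed cluster had 5 reads and 2 converted positions. The submitters' processing notes name cutadapt 1.8.3 and Bowtie 1.1.2, with builds hg38 and GRCh38.p5. The cluster caller and its filters are not given in the sources used here. Library depth is unknown, as the tables hold only reads in clusters.

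Members were those annotated as repeat whose name is not an L2 form. Shares carry 95% Wilson intervals; WT means carry the SD (n = 2). Clusters overlapped when they shared 1 nt on a strand. RefSeq gene intervals (GRCh38.p14) lack strand, which was taken from the RefSeq promoter table, a departure from the plan. Repeats named were the 10 with the highest geometric mean of clusters + 1 over WT and those with 2 or more KO clusters, and single clusters were the 5 top WT pairs (1 is not reported here), the 2 most read per family and WT library and the 10 most read in KO; HERVH-int words and loci, the 3′ word, subfamilies and loci of other elements were singled out after values were seen. Members and lists were chosen with earlier results of these data known. Of the procedures, only the overlap of clusters was checked on simulated data. Python 3.11.15, numpy 2.4.6, pandas 2.3.3 and scipy 1.17.1 were used.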

Additional observations from a re-analysis of the deposited data

How the results depend on the processing

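No paired analysis was possible because KO has 1 library, so that the groups share fewer than 2 replicate numbers. Alternatives without the 3′ word, simple repeats, HERVH-int or the L2-like names were chosen after seeing the data. For the share of members, WT moved from 0.953% to 0.594% with at least 3 converted positions, 3.93% by window, 0.766% by reads and 0.794% without simple repeats, and KO from 3.80% to 5.68% with 3 converted positions and 2.03% without the 3′ word; without a WT replicate it was 0.873% to 1.03%. The LTR share in WT, 47.0%, became 48.2% with 3 converted positions, 44.0% by window, 52% by reads, 56.6% without simple repeats, 41.5% without HERVH-int and 46.2% to 47.7% without a replicate. The L1 share in WT, 7.63%, became 6.08% with 3 converted positions, 6.42% by reads and 9.19% without simple repeats, and 7.17% to 8.09% without a replicate; in KO it was 13.3% without the 3′ word, within the interval of the reported 25%. The mean of WT median reads, 25.5, became 53.5 with 3 converted positions, with 17 to 34 without a replicate, and the KO median became 272, or 151 without the 3′ word. As a median over clusters, conversion was 9.83% in WT and 8.80% in KO. Pooled over events it was 10.5% in KO without the 3′ word, above WT, where it was 6.63% with it; without a replicate WT gave 8.19% to 9.13%. Pyrimidine in WT became 70.2% with 3 nt off each end and 65.2% without simple repeats, 67.2% to 69.5% without a replicate, and in KO 57.6% without the 3′ word. TTCTT in WT rose to 29.1% in whole clusters and fell to 20.2% without simple repeats, with 22.2% to 25.3% without a replicate. Within RefSeq genes on either strand lay 50.5% in WT and 62.5% in KO, and within 50 kb past a gene end 37.3% and 21.9%. Recurrence of replicate 2 members became 13.5% (5 of 37) with 3 converted positions. Of 145 recomputed values, 101 lay within 1 SD or the interval of the reported one, and 14 of the 44 that moved further were shares of the simple, MIR, Alu and DNA families. With 2 replicates, a value without a replicate always lies within 1 SD of the mean, so those values could not move. For reads, conversion and bases of KO the SD of WT stood in for an interval. The count of 101 is therefore no measure of robustness. The 32 members of KO leave wide intervals.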

Other observations

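The deposited fraction of reads that end in G depended on the strand of the member. On the plus strand its median was 100% in both WT libraries. On the minus strand it was 0% for 346 of 357 members of replicate 1 and 87 of 91 of replicate 2, although 71.1% and 93.4% of these cluster sequences end in G. The column was therefore used in no result. Read from the sequences, 67% of members of replicate 1, 93.2% of replicate 2 and 43.8% (28.2 to 60.7) of KO end in G, against 73.5%, 94.4% and 72.1% of all clusters.

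In WT most clusters with the 3′ word had other lengths than 43 or 46 nt, but these lengths were more frequent with the word than without it. In replicate 2, 39 of 153 clusters with the word were 43 or 46 nt long, against 145 of 27002 without it, and among unannotated clusters 16 of 26 against 8 of 1593. In replicate 1 the counts were 50 of 571 against 1040 of 86659.

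A locus on the plus strand of chromosome 2 between 183197159 and 183216867, past the end of NUP35, held 7 members under 5 repeat names, among them L2-3_Crp, MER41A and MLT1F1. Replicate 1 gave 6 of them, with 172 reads, and replicate 2 gave 1, with 74 reads.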
